A study of Mus musculus with 6 samples.

Results

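Core genes of DNA methylation and its removal were read across RNA sequencing libraries of mouse leukaemia cells: the methyltransferases Dnmt1, Dnmt3a and Dnmt3b, the TET enzymes Tet1, Tet2 and Tet3, the glycosylase Tdg, the methyl-CpG reader Mbd2 and the isocitrate dehydrogenases Idh1 and Idh2. They were chosen by name, and all 10 were found among the 27179 genes of the count table. Of the 10, 9 passed the filter on low counts and were among the 13207 genes tested, and Tet1 did not pass. There were 3 libraries from mice given panobinostat, an inhibitor of histone deacetylases, for 3 days and 3 libraries from mice given vehicle. Cells of both groups were of the line A/E9a;NRASG12D;Ifnar1-/- on the C57BL/6 background: both carry the A/E9a fusion oncogene and an activated NRAS, and the labels give loss of Ifnar1, a chain of the receptor for type I interferons, for both. They were sorted from the spleen as viable cells that express green fluorescent protein. Nothing in the labels ties each library to its own mouse, so the spread behind every p-value is that of these libraries and may be technical.

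In mammals, DNA methylation is written mostly on cytosines that are followed by guanine, the CpG sites. Dnmt1 copies the methyl groups onto the new strand after replication, and Dnmt3a and Dnmt3b can place them where there were none. TET enzymes oxidise methylcytosine, with iron and 2-oxoglutarate as cofactors, and Tdg cuts out the most oxidised forms so that repair can restore plain cytosine. Idh1 in the cytosol and Idh2 in mitochondria make 2-oxoglutarate, and mutant forms of either make 2-hydroxyglutarate, which inhibits TET enzymes. Mbd2 binds methylated CpG sites and recruits a repressor complex that holds histone deacetylases. In human acute myeloid leukaemia, the genes for DNMT3A, TET2 and both isocitrate dehydrogenases are often mutated.

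Library totals ran from 34023178 to 35962605 counts in the panobinostat group and from 31989622 to 34704965 counts in the vehicle group. Levels are given as counts per 1000000 (CPM) on TMM-scaled library sizes, and 3 counts, the limit that a count of 0 allows, came to 0.0834 to 0.0948 CPM. This limit covers counting error only. On the first principal component the panobinostat libraries stood at -16.7, -15.0 and -25.3 and the vehicle libraries at -53.7, 54.3 and 56.4, so that vehicle library 1 lay on the side of the panobinostat libraries. On the second component panobinostat library 1 lay far from the rest, at 64.9. Ifnar1, lost by label in both groups, was counted at 43.2, 35.7 and 46.4 CPM in panobinostat libraries and at 48.0, 38.4 and 36.9 CPM in vehicle libraries. Gene counts do not show which exons these reads came from, so they do not check the label. Of 8 erythroid markers, 7 had a row and were tested, and they summed to 2218 to 21350 CPM in panobinostat and 6530 to 22376 CPM in vehicle libraries. Where a member's estimate rested on one of these libraries, the value without it is given beside it. By edgeR's quasi-likelihood test with Benjamini-Hochberg adjustment over all genes tested, 0 genes were called higher and 0 lower with panobinostat (0% in each direction), and 301 genes (2.28%) had an unadjusted p under 0.05. DESeq2 called 7 genes higher (0.0534%) and 2 lower (0.0152%), none of them a member, and limma-voom called 0. Estimates were higher with panobinostat for 50.2% of all genes tested and for 6 of the 9 members.

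CpG-rich sequence lies before the starts of most of these genes. Windows of the 250 bases before a RefSeq start (GRCm38.p6) were read for 9 of the 10 genes, 14 windows in all, some of which overlap. No window of Mbd2 was read, so Mbd2 does not enter the counts of windows for these genes. The 14 windows held between 2 and 51 CG pairs. The median over all 32851 windows was 6, and 13 of the 14 stood above it, against 46.3% of all windows. The windows of 3 genes are shown with each CG in capitals: those of Dnmt3b and Dnmt3a, which were both lowest in vehicle libraries 2 and 3, and that of Dazl, a germline gene known in mice to be silenced by methylation of its promoter.
Dnmt3b promoter, chr2:153649199-153649448, plus strand: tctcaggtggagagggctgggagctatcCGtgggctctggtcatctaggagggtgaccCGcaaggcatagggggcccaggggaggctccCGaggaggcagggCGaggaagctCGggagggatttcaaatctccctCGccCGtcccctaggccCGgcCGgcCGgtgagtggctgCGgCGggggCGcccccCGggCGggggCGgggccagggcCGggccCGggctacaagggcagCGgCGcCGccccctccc
Dnmt3a promoter, chr12:3806730-3806979, plus strand: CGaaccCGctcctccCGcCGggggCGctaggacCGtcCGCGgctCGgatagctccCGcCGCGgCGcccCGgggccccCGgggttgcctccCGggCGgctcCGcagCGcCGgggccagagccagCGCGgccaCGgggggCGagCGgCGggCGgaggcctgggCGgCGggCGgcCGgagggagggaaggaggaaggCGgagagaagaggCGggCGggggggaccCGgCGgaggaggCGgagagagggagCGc
Dazl promoter, chr17:50293637-50293870, minus strand: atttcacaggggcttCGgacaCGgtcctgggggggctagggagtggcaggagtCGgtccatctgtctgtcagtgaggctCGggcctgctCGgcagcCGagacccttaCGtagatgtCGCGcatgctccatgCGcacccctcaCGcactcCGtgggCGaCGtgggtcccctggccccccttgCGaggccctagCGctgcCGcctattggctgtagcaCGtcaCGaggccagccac
The Dnmt3b window held 21 CG pairs, a number that 16.3% of all windows reach, and the Dnmt3a window shown held 38, which 1.88% reach. The Dazl window held 20 CG pairs, which 17.9% reach, and 19 of these are in the 234 bases printed, which stop before the annotated exon. Of the 9 genes read, Tet2 had the most, with 51 in its window. Methylation of these sites was not measured, and which start the cells use was not tested.

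Dnmt1 was the most abundant methyltransferase, and its level did not separate the groups. Dnmt1 (Entrez gene 13433, chromosome 9, 20907206 to 20959888, GRCm38) stood at 583, 651 and 557 CPM in panobinostat libraries 1, 2 and 3, and at 477, 633 and 699 CPM in vehicle libraries 1, 2 and 3. The lowest and the highest library were both vehicle libraries, so the panobinostat values lay inside the vehicle range. The log2 fold change was -0.01 (SE 0.164), with an edgeR adjusted p of 0.998. Without vehicle library 1 it was -0.17 (SE 0.109), with an edgeR adjusted p of 0.437.

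Dnmt1 was lowest in vehicle library 1, as were genes of DNA replication. Vehicle library 1 was the lowest of the 6 for 16 of the 16 S phase genes listed, among them Mcm2 and the other helicase subunits Mcm3 to Mcm7, against 25.4% of all genes tested. It was also the lowest for 6 of 9 partners of maintenance methylation. Uhrf1, which brings Dnmt1 to half-methylated DNA, stood at 290, 417 and 355 CPM in panobinostat libraries and at 272, 403 and 389 CPM in vehicle libraries. After subtracting each gene's mean log2 CPM, the S phase median was -0.22, 0.13 and -0.04 in panobinostat libraries and -0.38, 0.26 and 0.23 in vehicle libraries, while Dnmt1 stood at -0.03, 0.13 and -0.10 and then at -0.32, 0.09 and 0.23. The part of S phase content in the level of Dnmt1 was not tested.

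**Figure D1:**
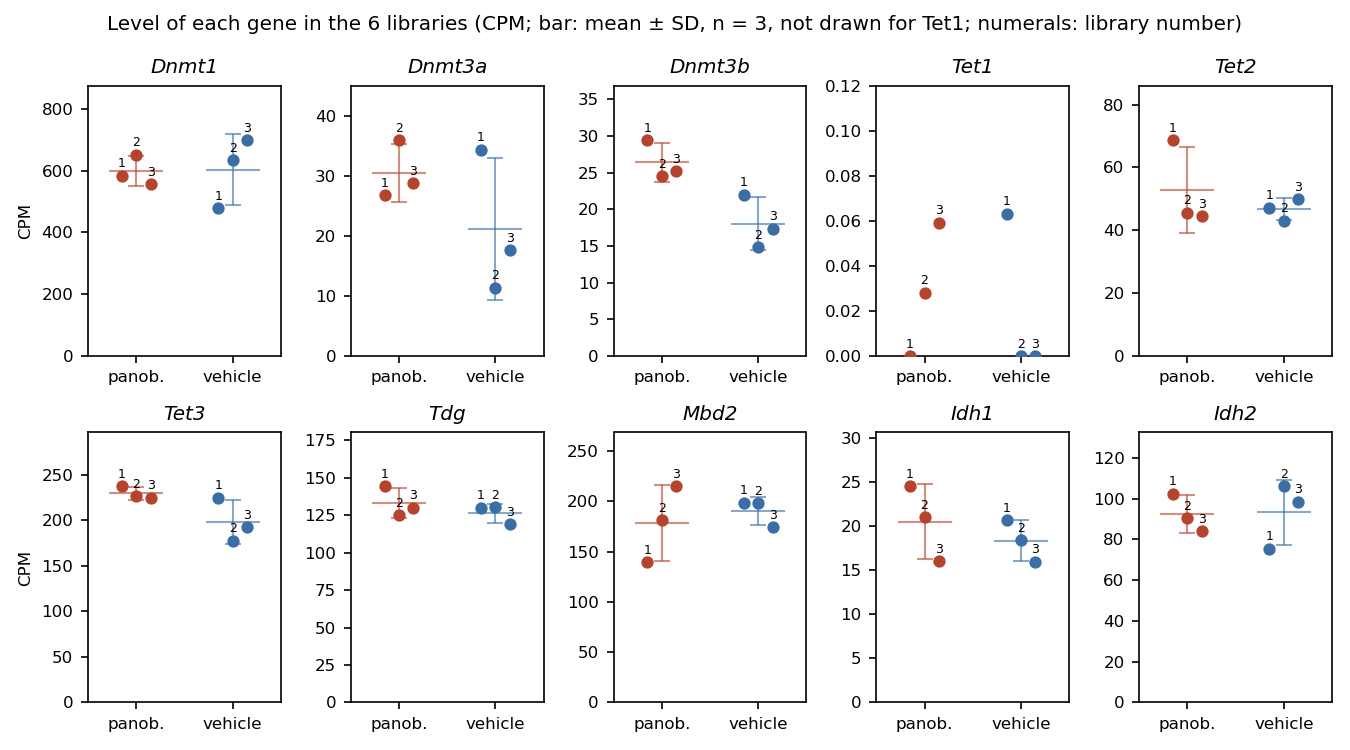
Level in CPM (y axis, from 0, own scale per gene) of the 10 genes in 3 panobinostat (left, red) and 3 vehicle (right, blue) libraries; points are libraries with their number, and bars give mean ± SD (n = 3), left out for Tet1. The groups do not overlap for Dnmt3b and Tet3, and vehicle library 1 lies among the panobinostat libraries for Dnmt3a.

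The methyltransferases that place new methylation stood lower than Dnmt1 and had higher estimates with panobinostat, but neither passed the threshold. Dnmt3b (Entrez gene 13436, chromosome 2, 153649411 to 153687730) stood at 29.5, 24.6 and 25.2 CPM in panobinostat libraries and at 22.02, 14.8 and 17.3 CPM in vehicle libraries. Each panobinostat library was above each vehicle library, with means of 26.4 ± 2.67 and 18.1 ± 3.66 CPM (SD, n = 3). The difference was 1.46-fold, a log2 fold change of 0.55 (SE 0.178), with an unadjusted p of 0.0198 and an edgeR adjusted p of 0.998. Dnmt3b was the only one of the 9 genes tested with an unadjusted p under 0.05 in edgeR with all 6 libraries. With 1 library left out, its log2 fold change ran from 0.43 to 0.70. The edgeR unadjusted p was 0.0617 without panobinostat library 1, 0.0519 without vehicle library 2 and 0.0589 without vehicle library 3. It was under 0.05 when any other single library was left out.

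Dnmt3a (Entrez gene 13435, chromosome 12, 3801559 to 3914443) stood at 26.8, 36.03 and 28.9 CPM in panobinostat libraries and at 34.4, 11.4 and 17.7 CPM in vehicle libraries. Vehicle library 1 lay inside the panobinostat range and the other vehicle libraries lay below it. The log2 fold change was 0.53 (SE 0.398), with an edgeR adjusted p of 0.998. It was 1.06 (SE 0.242) without vehicle library 1, with an edgeR adjusted p of 0.0940, and 0.23 without vehicle library 2.

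Without both libraries numbered 1, edgeR called both of these genes higher with panobinostat. The libraries left out are those that stood apart on the principal components of these same data. Vehicle library 1 was also the one inside the panobinostat range for Dnmt3a, so the calls are not independent support. The fold was 2.21 for Dnmt3a (log2 fold change 1.15, SE 0.239, edgeR adjusted p 0.0364) and 1.54 for Dnmt3b (0.62, SE 0.128, edgeR adjusted p 0.0302). These were 2 of 9 members, where 974 of 13239 genes (7.36%) were called higher and 616 (4.65%) lower in the same setting, which leaves 2 libraries a group. Without vehicle library 1 alone, 0 members were called, where 268 genes (2%) were called higher and 56 (0.419%) lower. Over the 14 alternatives the edgeR, DESeq2 or limma-voom adjusted p ran from 0.0364 to 1.00 for Dnmt3a and from 0.0302 to 1.00 for Dnmt3b.

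Dnmt3a, Dnmt3b and Tet3 had vehicle libraries 2 and 3 below the other 4 libraries, which was so for 19.1% of all genes tested. Marker genes of other cells also differed between these libraries. The 8 megakaryocyte markers, of which 5 were tested, summed to 16.9 to 112 CPM in panobinostat libraries and to 7.77 to 176 CPM in vehicle libraries, with vehicle libraries 2 and 3 at 7.89 and 7.77 CPM. Gp1bb, a megakaryocyte marker, had at most 3 counts in any library, and no marker of that list was at 0 in all 6. The 8 B cell markers, all tested, summed to 5.36 to 30.4 CPM in panobinostat and 28.6 to 48.6 CPM in vehicle libraries, again with none at 0 in all 6. The part of such cells in the levels of Dnmt3a, Dnmt3b and Tet3 was not tested. In bulk libraries, fewer cells of a type and less RNA per cell cannot be told apart.

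Near copies and genes on the opposite strand bear on these counts. Dnmt3aos, an antisense gene that shares exonic bases with Dnmt3a, had 2 counts in panobinostat library 1 and 0 in the other 5 libraries. Dnmt3c, a rodent copy of Dnmt3b that lies beside it on chromosome 2, was not analysed here, and how reads common to both were counted is not given in the sources used. By the rule for likeness, Dnmt3a was the member with the widest range over the libraries. The genes most like it by Pearson r of log2 CPM over the 6 libraries were Cwf19l2, Fgf2os and Zfp865, at 0.994, 0.993 and 0.991. These are the top values among all genes tested, over only 6 libraries, and they are given as a description. Cwf19l2, for one, stood at 27.4, 30.8 and 28.2 CPM in panobinostat libraries and at 31.0, 20.3 and 24.7 CPM in vehicle libraries.

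**Figure D2:**
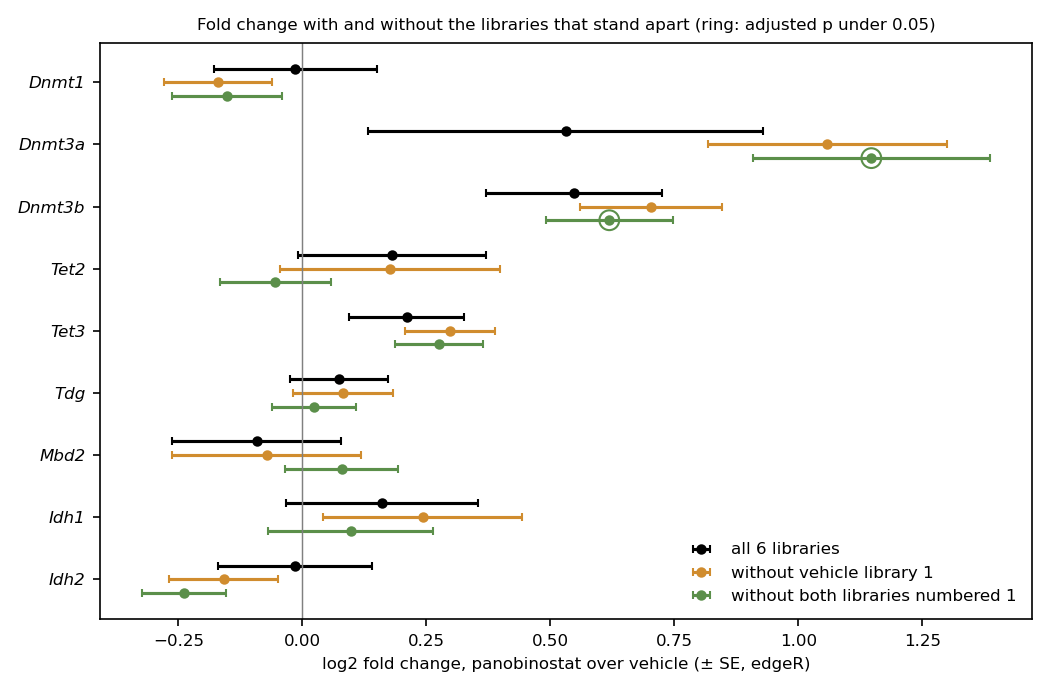
log2 fold change of panobinostat over vehicle (x axis) with its SE for the 9 genes tested, from edgeR with all 6 libraries (black), without vehicle library 1 (orange) and without both libraries numbered 1 (green); a ring marks an adjusted p under 0.05. Dnmt3a and Dnmt3b have rings only without both libraries numbered 1, at 1.15 and 0.62.

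Of the TET enzymes, Tet3 was the most abundant and Tet1 was not detectable at this depth. Tet1 (Entrez gene 52463, chromosome 10, 62804570 to 62887469) had 0, 1 and 2 counts in panobinostat libraries and 2, 0 and 0 counts in vehicle libraries. All 6 values were under the limit of 3 counts, and no fold is given. Tet1 and Tet3 carry a CXXC domain that binds unmethylated CpG sites, while Tet2 has none and works with Cxxc4, which had at most 2 counts in any library.

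Tet3 (Entrez gene 194388, chromosome 6, 83362373 to 83457208) stood at 237, 226 and 225 CPM in panobinostat libraries and at 225, 178 and 192 CPM in vehicle libraries. The groups did not overlap, but panobinostat library 3 and vehicle library 1 were nearly level, at 224.7 and 224.6 CPM. The log2 fold change was 0.21 (SE 0.116), with an edgeR unadjusted p of 0.116 and adjusted p of 0.998. Without vehicle library 1 it was 0.30 (SE 0.0909), with an edgeR unadjusted p of 0.0179 and adjusted p of 0.155. Without both libraries numbered 1 it was 0.27 (SE 0.0886), with an edgeR adjusted p of 0.102. With 1 library left out it ran from 0.14 to 0.30. Dnmt3b and Tet3 were thus 2 of 9 genes with each panobinostat library above each vehicle library, and 0 of 9 were the other way. Over all genes tested the shares were 3.79% above and 3.63% below, 7.43% in all.

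Tet2 (Entrez gene 214133, chromosome 3, 133463677 to 133545136) stood at 68.7, 45.5 and 44.5 CPM in panobinostat libraries and at 47.2, 43.0 and 49.8 CPM in vehicle libraries. Panobinostat library 1 was high, and the other 5 libraries lay within 43.0 to 49.8 CPM. The log2 fold change was 0.18 (SE 0.189, edgeR adjusted p 0.998), and -0.05 without panobinostat library 1. In that library the 8 mast cell and basophil markers, 7 of them tested and none at 0 in all 6, summed to 2417 CPM. They summed to 979 and 966 CPM in the other panobinostat libraries and to 831, 895 and 862 CPM in vehicle libraries. Hdc at 1325 CPM and Ms4a2 at 695 CPM were the largest parts of the sum in panobinostat library 1. Of the 8 markers, only Fcer1a was not highest there. Fcer1a stood at 27.4, 33.1 and 30.4 CPM in panobinostat libraries and at 60.8, 4.82 and 2.99 CPM in vehicle libraries. The part of mast cells in the level of Tet2 was not tested.

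Tdg, which cuts out the most oxidised forms of methylcytosine, and the reader Mbd2 showed no separation of the groups. Tdg (Entrez gene 21665, chromosome 10, 82629814 to 82650799) stood at 144, 125 and 130 CPM in panobinostat libraries and at 130, 130 and 119 CPM in vehicle libraries. The groups overlapped, with a log2 fold change of 0.07 (SE 0.0987) and an edgeR adjusted p of 0.998. Without panobinostat library 1, the highest, the log2 fold change of Tdg was 0.01 (SE 0.0969). Its level is uncertain because near copies were counted at like levels. Tdg-ps2 stood at 140, 118 and 121 CPM in panobinostat libraries and at 125, 120 and 108 CPM in vehicle libraries. Tdg-ps stood at 47.8, 41.5 and 44.3 CPM in panobinostat libraries and at 44.4, 37.8 and 39.2 CPM in vehicle libraries. Tdg took 43.5, 44.0 and 44.0% of the sum of the 3 genes in panobinostat libraries and 43.4, 45.2 and 44.8% in vehicle libraries. Which of the copies the reads came from was not tested.

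Mbd2 (Entrez gene 17191, chromosome 18, 70568225 to 70629134) stood at 140, 182 and 215 CPM in panobinostat libraries and at 199, 199 and 174 CPM in vehicle libraries. Both the lowest and the highest library were panobinostat libraries, 1 and 3. The log2 fold change was -0.09 (SE 0.170, edgeR adjusted p 0.998), and 0.06 (SE 0.127) without panobinostat library 1.

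The isocitrate dehydrogenases did not separate the groups either. Idh1 (Entrez gene 15926, chromosome 1, 65158616 to 65186479) stood at 24.5, 21.0 and 16.04 CPM in panobinostat libraries and at 20.7, 18.4 and 15.98 CPM in vehicle libraries. Library 3 was the lowest of each group, and its log2 fold change was 0.16 (SE 0.194, edgeR adjusted p 0.998). Without panobinostat library 1, the highest of the 6, it was 0.01 (SE 0.192). Idh2 (Entrez gene 269951, chromosome 7, 80094845 to 80118608) stood at 102, 90.3 and 84.1 CPM in panobinostat libraries and at 75.5, 106 and 98.5 CPM in vehicle libraries. Vehicle library 1 was the lowest of the 6, and the log2 fold change was -0.02 (SE 0.155, edgeR adjusted p 0.998). That of Idh2 was -0.16 (SE 0.11) without vehicle library 1. Without both libraries numbered 1 it was -0.24 (SE 0.0843), with an edgeR adjusted p of 0.128. Reads of a mutant form of either gene could not be told from the normal one in gene counts.

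**Figure D3:**
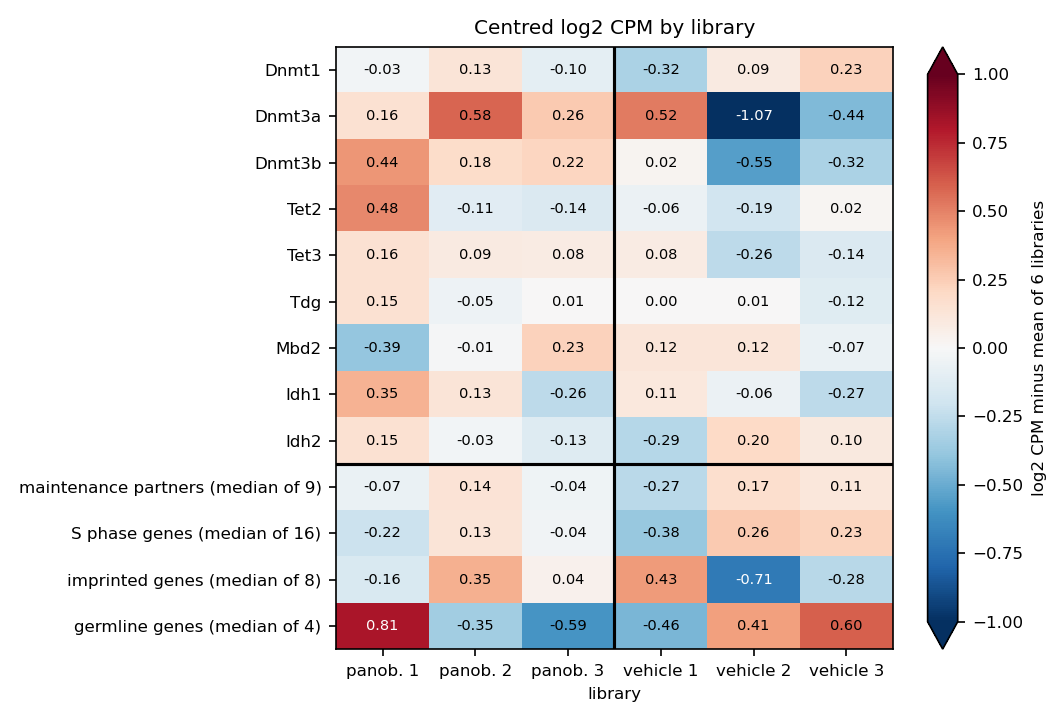
log2 CPM minus its mean over the 6 libraries (colour and printed value, colour scale from -1 to 1) for the 9 genes tested (above the line) and medians of 4 gene lists (below), with panobinostat libraries left of vehicle libraries. Dnmt3a runs from 0.58 in panobinostat library 2 to -1.07 in vehicle library 2, and vehicle library 1 is lowest for Dnmt1 (-0.32) and the S phase median (-0.38).

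Levels of different genes were set side by side per kilobase of exon, using the union of the exons annotated in GENCODE M21 (GRCm38). Dnmt1 stood at 80.9 ± 6.58 CPM per kilobase in panobinostat and 81.7 ± 15.4 in vehicle libraries (SD, n = 3). It took 92.0 ± 0.613% of the summed level per kilobase of the 3 methyltransferases in panobinostat and 94.2 ± 2.74% in vehicle libraries. Next came Mbd2 at 55.6 ± 11.7 and 59.3 ± 4.36 CPM per kilobase, which was below Dnmt1 in all 6 libraries although their ranges overlapped. Idh2, at 35.7 ± 3.61 and 36.05 ± 6.14 CPM per kilobase, and Tdg, at 24.8 ± 1.84 and 23.5 ± 1.18, followed without overlap, and then Tet3 at 13.7 ± 0.400 and 11.9 ± 1.44.

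Below Tet3 the ranges ran into each other. Idh1 stood at 7.41 ± 1.54 CPM per kilobase in panobinostat and 6.63 ± 0.850 in vehicle libraries, Dnmt3b at 5.17 ± 0.523 and 3.54 ± 0.717, and Tet2 at 3.14 ± 0.811 and 2.77 ± 0.204. Within each library the order of these 3 was the same. Dnmt3a was the lowest gene above the detection limit, at 1.84 ± 0.291 and 1.27 ± 0.716 CPM per kilobase. Tet3 made up 81.6 ± 3.35% of the summed level per kilobase of Tet2 and Tet3 in panobinostat and 81.0 ± 1.62% in vehicle libraries.

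The place of Dnmt3a rested on the length used. Its annotated exons cover 16.642 kilobases, of which 2.833 are coding, against 5.106 and 2.580 for Dnmt3b. Per kilobase of exon, Dnmt3b stood 2.88 ± 0.682 times as high as Dnmt3a in panobinostat and 3.17 ± 1.08 times in vehicle libraries (SD, n = 3). Per kilobase of coding sequence the ratio was 0.971 ± 0.230 and 1.07 ± 0.363, with Dnmt3b above Dnmt3a in 3 of 6 libraries. On that scale Mbd2 stood above Dnmt1, in 4 of 6 libraries, and Tdg above Idh2.

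**Figure D4:**
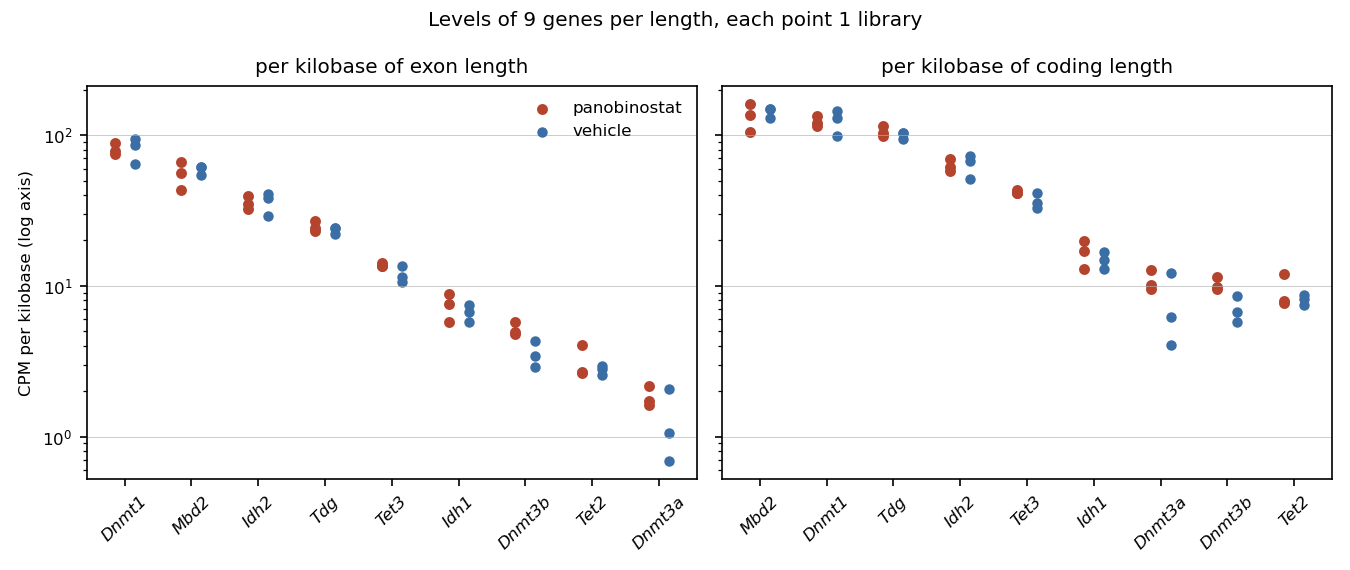
CPM per kilobase (y axis, log scale) of exon (left) and of coding sequence (right) for 9 genes in order of their median, each point 1 library, with panobinostat in red left of vehicle in blue; Tet1 is not drawn. Dnmt1 leads per exon length at 64.7 to 94.7, and Dnmt3a, Dnmt3b and Tet2 overlap per coding length.

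Other genes of the methylation cycle were read from lists of 111 genes, of which 110 had a row and 86 were tested. None was called with all 6 libraries by edgeR, and 3 had an unadjusted p under 0.05. Estimates were higher for 42 and lower for 44, with a median log2 fold change of -0.00, and the median over all genes tested was 0.00. The median of the 9 members was 0.16. For 4 of the 86 genes all panobinostat libraries were above all vehicle libraries, and for 3 below, against 3.79% and 3.63% of all genes.

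Among partners of maintenance methylation 9 of 9 were tested, 5 with higher and 4 with lower estimates and a median of 0.02. Cdca7l, a relative of the chromatin remodelling factor Cdca7, stood at 103, 80.7 and 70.2 CPM in panobinostat libraries and at 57.6, 63.4 and 66.3 CPM in vehicle libraries, so the groups did not overlap. Its log2 fold change was 0.44 (SE 0.160, unadjusted p 0.0310, edgeR adjusted p 0.998). Usp7, a deubiquitinase that binds Dnmt1 and Uhrf1, had a log2 fold change of -0.16. Of the partners and relatives of de novo methylation 5 of 7 were tested, and Trdmt1, a methyltransferase of tRNA, and Nsd1, a histone methyltransferase, had 0.20 and 0.16. Dnmt3l, the cofactor of Dnmt3a in germ cells, had 0 counts in all 6 libraries.

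All 9 genes listed as methyl-CpG readers or their relatives were tested, 4 with higher and 5 with lower estimates and a median of -0.01. Mbd4, a glycosylase that also binds methylated CpG, and Zbtb33, a zinc finger reader, had log2 fold changes of -0.19 and -0.13. Of 8 TET partners 5 were tested, with a median of 0.05, and the pair with the smallest p were near the floor. Wt1 stood at 0.111, 0.422 and 3.38 CPM in panobinostat libraries and at 0.253, 0.488 and 0.0580 CPM in vehicle libraries, where panobinostat library 3 alone was high. Cxxc5 stood at most at 2.81 CPM, in vehicle library 1. Ogt, the glycosyltransferase that binds TET enzymes, was abundant at 498, 431 and 438 CPM in panobinostat and 485, 370 and 411 CPM in vehicle libraries.

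Base excision repair and deaminase genes had 12 of 13 tested, 8 with higher and 4 with lower estimates and a median of 0.13. Lig3, a DNA ligase, stood at 72.7, 64.3 and 63.6 CPM in panobinostat libraries and at 58.0, 52.2 and 60.6 CPM in vehicle libraries. These groups did not overlap, with a log2 fold change of 0.23 (SE 0.106, edgeR adjusted p 0.998). Polb, the repair polymerase, stood at 23.2, 24.3 and 25.1 CPM in panobinostat libraries and at 26.3, 33.4 and 25.1 CPM in vehicle libraries, where the highest panobinostat and the lowest vehicle library were all but equal.

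The metabolic genes around the cofactors were all tested, and none was called. Mtap, which salvages methionine, stood at 124, 100.005 and 109 CPM in panobinostat libraries and at 96.1, 93.2 and 87.3 CPM in vehicle libraries (log2 fold change 0.27, SE 0.112, edgeR adjusted p 0.998). The whole list of the S-adenosylmethionine cycle had 9 of 9 genes tested, 5 with higher and 4 with lower estimates, and a median of 0.03. Of 9 genes of 2-oxoglutarate and 2-hydroxyglutarate metabolism, all tested, 4 had higher and 5 lower estimates. Idh3a, a subunit of the mitochondrial enzyme that uses NAD, stood at 278, 238 and 215 CPM in panobinostat libraries and at 184, 359 and 373 CPM in vehicle libraries, where vehicle library 1 was lowest. Gpt2, a transaminase, stood at most at 1.72 CPM.

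Genes known as readouts of DNA methylation were mostly near the floor. Of 14 germline genes 4 passed the filter, with 1 estimate higher, 3 lower and a median of -0.27. Dazl, whose promoter is shown above, stood at 4.39, 1.63 and 1.45 CPM in panobinostat libraries and at 1.20, 5.13 and 6.41 CPM in vehicle libraries. Panobinostat library 1 and vehicle libraries 2 and 3 were high, and the log2 fold change was -0.77 (SE 0.715, edgeR adjusted p 0.998). It was -1.46 (SE 0.740) without panobinostat library 1 and -1.22 (SE 0.529) without vehicle library 1. The median of the 4 germline genes was -0.85 without panobinostat library 1 and -0.04 without vehicle library 3. Tuba3a stood at 0.862, 0.759 and 0.623 CPM in panobinostat libraries and at 1.26, 0.0574 and 0.0870 CPM in vehicle libraries. Of 16 imprinted genes 8 were tested, 5 with higher and 3 with lower estimates and a median of 0.25, and H19, Igf2, Ndn, Peg10 and Plagl1 had 0 counts in all 6 libraries. Impact stood at 46.8, 44.2 and 46.8 CPM in panobinostat libraries and at 49.1, 51.3 and 52.2 CPM in vehicle libraries, without overlap (log2 fold change -0.15, SE 0.0853, edgeR adjusted p 0.998). Zrsr1 had a log2 fold change of -0.23. Of the 8 imprinted genes, 4 (Mest, Grb10, Nnat and Cdkn1c, named after their values were seen) had vehicle libraries 2 and 3 below the other libraries, as Dnmt3a did. Impact had these 2 libraries above the others. Over all genes tested the shares were 19.1% below and 18.1% above. Grb10, an adaptor that restrains growth signalling, stood at 10.7, 16.7 and 13.8 CPM in panobinostat libraries and at 38.3, 5.68 and 8.53 CPM in vehicle libraries. The median of the imprinted genes was -0.05 without vehicle library 2 and 0.71 without vehicle library 1.

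Of the 16 S phase genes, all tested, 2 had higher and 14 lower estimates, with a median of -0.08. Prim1, a primase subunit, and Gins1, a replication helicase subunit, had log2 fold changes of -0.18 and -0.29. The number of estimates on one side counts genes that vary together, since vehicle library 1 was lowest for all 16. Without vehicle library 2, 11 had higher and 5 lower estimates, with a median of 0.03.

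Without both libraries numbered 1, 14 genes of the lists were called, 8 higher and 6 lower, of 86 tested, beside 7.36% and 4.65% of all genes. These genes are named after their values were seen. Called higher were the reader Zbtb4, the repair genes Neil1 and Neil2 and the deaminase Apobec1. So were the germline gene Tuba3a and the imprinted genes Grb10, Mest and Cdkn1c. Among those called lower were Parp1, Neil3, Idh3a, Dazl and Gins1. The log2 fold changes ran from 0.82 for Zbtb4 to 3.19 for Tuba3a among the higher, and from -0.48 for Neil3 to -1.91 for Dazl among the lower. Tuba3a had only 2 and 3 counts in vehicle libraries 2 and 3, so the size of its fold is uncertain. Grb10 stood at 1.09 in this setting and at -0.35 with all 6 libraries, where vehicle library 1 was its highest, at 38.3 CPM. Without vehicle library 1 alone, Zbtb4 and Tuba3a were called higher and 0 lower.

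**Figure D5:**
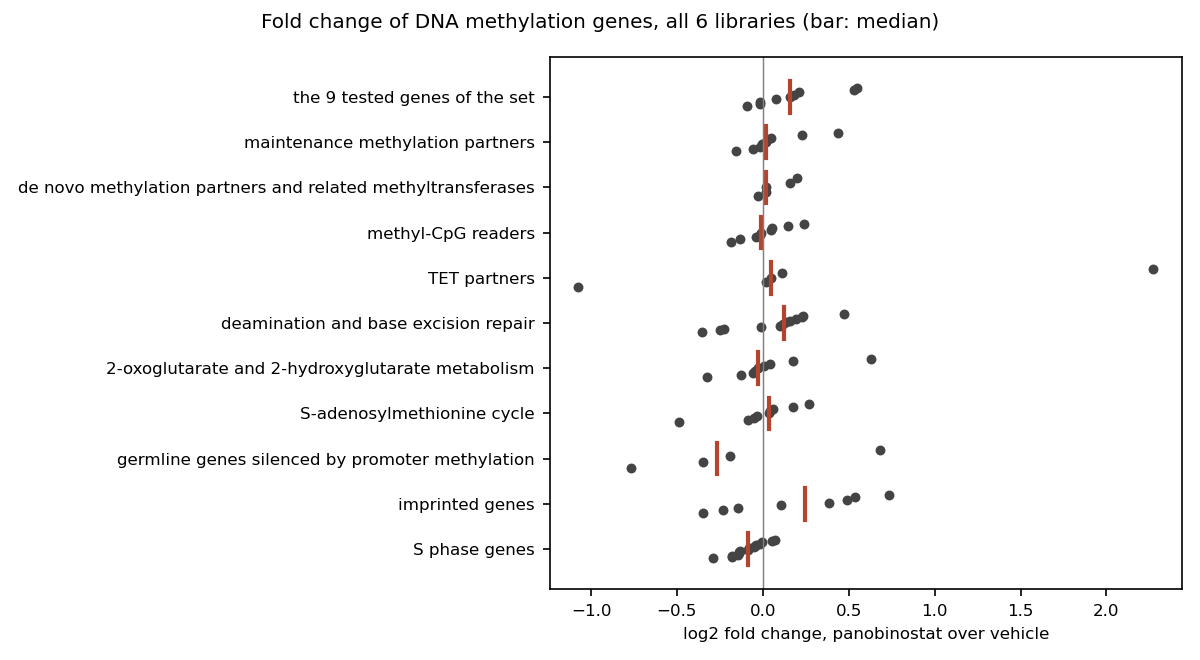
log2 fold change of panobinostat over vehicle (x axis) for the 9 genes tested of the set and for each list of the methylation cycle (rows), from edgeR with all 6 libraries; each point is 1 gene and the red bar is the median. Medians lie between -0.27 and 0.25, and no point passes the threshold.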

How the data were processed

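The authors deposited raw counts, whole numbers of reads for each Entrez gene in 6 libraries. Per the submitters' processing notes, HISAT2 2.1.0, featureCounts and Subread 2.0.0 were used with mm10; their options, the annotation and the strand setting were not given. Columns are named treated or ctrl with a number, 1 to 3, which nothing ties to the labels' replicate numbers. Symbols came from the RefSeq annotation of GRCm38.p6, the assembly of mm10, and 25275 of 27179 identifiers matched. Genes were kept by filterByExpr (minimum count 10), scaled by TMM factors and tested in edgeR 4.0.16 (R 4.3.3) by the robust quasi-likelihood F-test, two-sided, with Benjamini-Hochberg adjustment and a threshold of 0.05. The SE is the log2 fold change divided by the square root of F. The fit was checked on simulated counts, drawn with the same dispersion for every gene and with no library that stands apart. That check therefore does not show how the fit performs on these libraries. The members and lists were chosen with earlier results of these data known. Named from each list were the 2 genes with the smallest p, except results that are not reported here; further genes, Uhrf1, Ogt, the Mcm genes and genes without counts among them, were named after their values were seen. Alternatives were RLE factors, library size alone, a filter at a mean of 1 CPM or none at all, limma-voom (limma 3.58.1), DESeq2 1.42.0, the replicate block, coding length, and libraries left out.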

Additional observations from a re-analysis of the deposited data

How the results depend on the processing

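With all 6 libraries, 0 genes were called in either direction under every scaling and filter tried, by limma-voom and with the replicate block; DESeq2 called 7 higher and 2 lower. With 1 library left out, calls ran from 0 to 268 higher and from 0 to 56 lower, and those above 0 came without vehicle library 1; list genes called ran from 0 to 2 higher and 0 lower, and members called were 0. Without both libraries numbered 1, calls were 974 higher and 616 lower, with 8 list genes higher, 6 lower and 2 members called; the cause was not tested.

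Of 126 member estimates under alternatives, 111 kept their direction and side of the threshold, 2 were newly called (Dnmt3a and Dnmt3b, above) and 13 changed sign, all of them for Dnmt1, Tet2, Idh2 and Mbd2. Both sign changes of Tet2 came in settings without panobinostat library 1. Dnmt1 stood at 0.000729 with the replicate block and 0.00103 by limma-voom, and ran from -0.17 to 0.11 with 1 library left out. Without both libraries numbered 1, Tet2 stood at -0.054 and Mbd2 at 0.079. With 1 library left out, Tet2 ran from -0.050 to 0.29, Idh2 from -0.16 to 0.088 and Mbd2 from -0.25 to 0.059. Of 140 list medians, 132 moved by less than 1 SD between libraries; that of the germline genes was 0.38 with no filter on low counts, where 10 rather than 4 genes entered. The ratio of Dnmt3b to Dnmt3a was 0.971 in panobinostat and 1.07 in vehicle libraries per coding length, against 2.88 and 3.17 per exon length.

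Libraries with the same number deviated from their group means with correlations of -0.139, 0.0720 and -0.203 across genes. Those with unlike numbers ran from -0.177 to 0.233. Deviations within a group sum to 0, so with 3 libraries a group these values cannot decide whether the numbers pair the libraries. The main fit used no pairing. The replicate block gave 0 calls, and for Dnmt3a and Dnmt3b log2 fold changes of 0.67 and 0.56. Depth limited Tet1, with at most 2 counts in a library.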
